A study of Homo sapiens with 4 samples.

Results

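Skipped exons are exons that a cell keeps in some transcripts of a gene and leaves out of others. In MDA-LM2 cells that had received a scrambled oligo, 1356 of 39120 distinct skipped exons (3.47%) had at least 10 reads that only the exon-containing form can give and at least 10 that only the exon-less form can give, and were also listed in SSE mimetic cells. They lie in 991 genes and are called dual-read exons here. Where several deposited events shared a skipped exon, the event with the most form-specific reads was kept; 1402 events passed before this step. The exons were thus selected on read counts of the scrambled group, and their baseline levels describe the selection and are given without a test.

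MDA-LM2 is an established human breast cancer line, derived from MDA-MB-231 and selected for metastasis to the lung. Cells were transfected with lipofectamine, and total RNA was sequenced after DNase treatment on the column. The SSE mimetic group, which received an RNA of that name, had 2 samples, and the group that received the scrambled oligo had 2. The deposited tables hold 1 pooled read set per group, so they give no value per sample, no spread between replicates and no test across samples.

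Inclusion reads are those that match the exon-containing form alone, and skipping reads cross the junction that joins both neighbouring exons. The deposited percent spliced in (Ψ) is the fraction of transcripts estimated to keep the exon. The authors' program, MISO, derived it from inclusion, skipping and shared reads, with a 95% credible interval that covers counting error only. The dual-read exons had 38635 form-specific reads in SSE mimetic cells and 240803 in scrambled-oligo cells, with a median per exon of 14 (range 0 to 1079) and 71 (range 20 to 8895). Credible intervals of Ψ had a median width of 0.37 in SSE mimetic cells and 0.14 in scrambled-oligo cells.

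A cassette exon can add or remove a piece of a protein when its length is a multiple of 3, shift the reading frame when it is not, or bring in an early stop codon that marks the transcript for nonsense-mediated decay (NMD). Exons of the last kind are known as poison exons, and many genes of splicing regulators carry them. Exons in a 5′ UTR change the leader of the transcript and leave the protein as it is.

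The following 5 exons show these kinds. They were read 5′ to 3′ on the transcript strand from GENCODE release 29 transcripts (GRCh38). In the first 4, capitals mark the skipped exon and lower case its neighbours. In the last, which runs from the upstream exon into the poison exon, capitals mark the annotated stop codon.
FLNA, chrX:154357251-154357274, minus strand: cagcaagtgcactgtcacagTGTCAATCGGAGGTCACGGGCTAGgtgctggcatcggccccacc
HNRNPA2B1, chr7:26197831-26197866, minus strand: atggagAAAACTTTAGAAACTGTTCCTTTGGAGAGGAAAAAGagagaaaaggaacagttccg
VEGFA, chr6:43781956-43782087, plus strand: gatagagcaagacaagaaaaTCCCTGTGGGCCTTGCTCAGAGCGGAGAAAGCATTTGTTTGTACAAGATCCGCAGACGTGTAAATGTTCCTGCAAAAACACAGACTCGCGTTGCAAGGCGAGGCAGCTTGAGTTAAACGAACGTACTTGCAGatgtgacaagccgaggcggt
ZNF185, chrX:152936418-152936513, plus strand: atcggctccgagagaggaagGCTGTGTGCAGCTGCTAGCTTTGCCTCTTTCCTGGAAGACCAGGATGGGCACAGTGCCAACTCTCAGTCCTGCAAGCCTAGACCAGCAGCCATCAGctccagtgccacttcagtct
EIF4A2, chr3:186788310-186788416, plus strand, end of the upstream exon and first 10 bases of the exon: cgtgaaaactatattcacaggagtcgaTAG
The exons of FLNA, HNRNPA2B1, VEGFA and ZNF185 are 24, 36, 132 and 96 nt long and leave the frame intact when skipped. The EIF4A2 exon is 107 nt long, and its stop codon begins at exon position 8.

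Most dual-read exons were skipped more often than kept at baseline. Their median Ψ in scrambled-oligo cells was 0.21 (interquartile range 0.10 to 0.39), and 261 of the 1356 were at 0.5 or above. By level, 309 exons were below 0.1, 459 from 0.1 to 0.25, 327 from 0.25 to 0.5, 135 from 0.5 to 0.75, 78 from 0.75 to 0.9 and 48 at 0.9 or above. At the edge of the rule, 138 exons with exactly 10 reads of the rarer kind had a median Ψ of 0.21, and 178 exons with 9, which were not included, had 0.22. The skipping junction itself was annotated for 1344 of the 1356 exons (99.1%). It was annotated for 93.7% of the other skipped exons with at least 20 form-specific reads in the scrambled group.

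The annotation of the exon went with its level. GENCODE lists 421 dual-read exons (31.0%) inside the coding sequence, with a median Ψ of 0.38. A further 321 (23.7%) are found only in transcripts marked for NMD, with a median of 0.14, and 257 (19.0%) lie in a 5′ UTR, with a median of 0.16. Noncoding transcripts of coding genes account for 142 (median 0.14), exons with a start or stop codon for 111 (0.22), exons without an annotated match for 65 (0.20), noncoding genes for 37 (0.26) and a 3′ UTR for 2. Coding exons made up 13.3% of dual-read exons with Ψ below 0.1 and 79.2% of those at 0.9 or above.

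**Figure D1:**
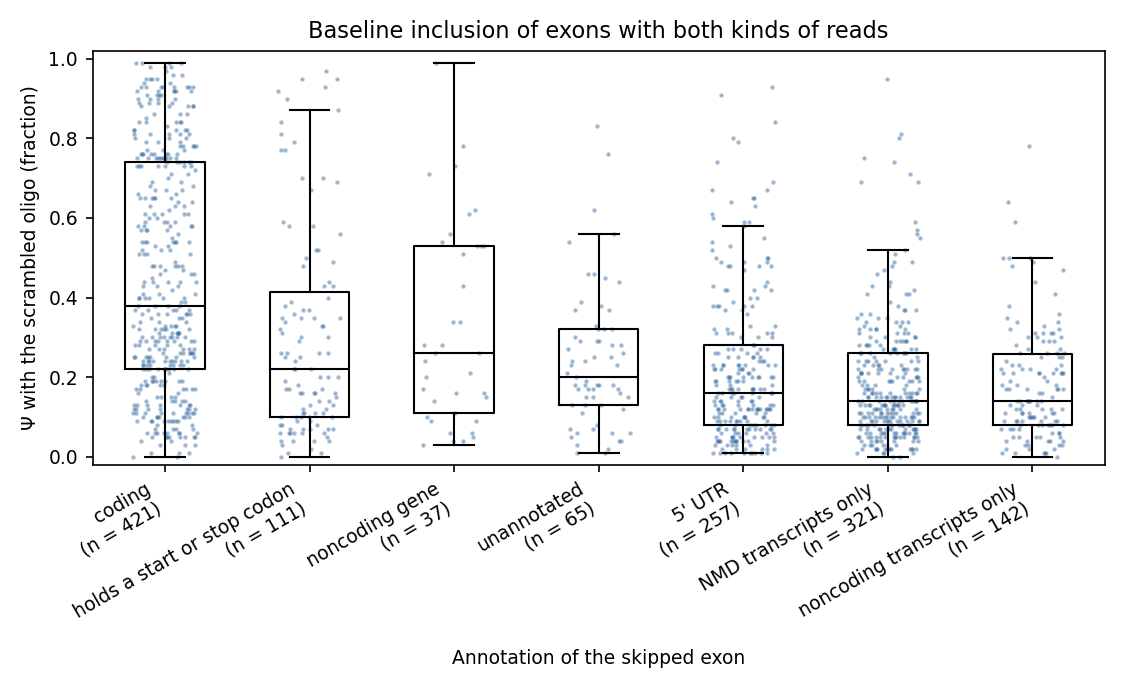
Ψ in scrambled-oligo cells (fraction, vertical axis) of dual-read exons by annotation of the exon, without the 2 exons in a 3′ UTR; points are exons, boxes the median and quartiles, and whiskers reach the last exon within 1.5 box heights. Coding exons, with a median of 0.38, spread over the whole range, while exons of NMD transcripts, with a median of 0.14, lie mostly at the low end.

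The comparison set below is the 11545 other skipped exons with at least 20 form-specific reads in the scrambled group. Coding exons made up 31.0% of the dual-read exons and 61.0% of that set, where their median Ψ was 0.92. NMD-only exons made up 23.7% and 10.9%, and exons in a 5′ UTR 19.0% and 6.59%.

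Reading frame was not part of the rule, and it set coding dual-read exons apart from other coding exons by count. Of the 421 coding dual-read exons, 326 (77.4%) had a length that is a multiple of 3, against 3333 of 7037 (47.4%) of the other coding exons. The share was 81.3% against 53.2% for exons of 28 to 75 nt, 75.3% against 45.9% for 76 to 150 nt and 73.9% against 44.0% for lengths above 150 and up to 300 nt, so it was higher in each of these length classes. Outside the coding sequence the shares lay close together, at 34.2% against 30.6% in 5′ UTRs and 29.6% against 30.1% in NMD-only exons. At baseline levels below 0.1 the frame was preserved by 34 of 41 coding dual-read exons, and from 0.1 to 0.25 by 83 of 91. It was preserved by 92 of 113 from 0.25 to 0.5 and 58 of 76 from 0.5 to 0.75. Above that it was 31 of 62 up to 0.9 and 28 of 38 beyond. The other coding exons had a median Ψ of 0.92, so the groups are not matched on level. Exons of 1 gene are not independent, and no test was made of these shares.

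**Figure D2:**
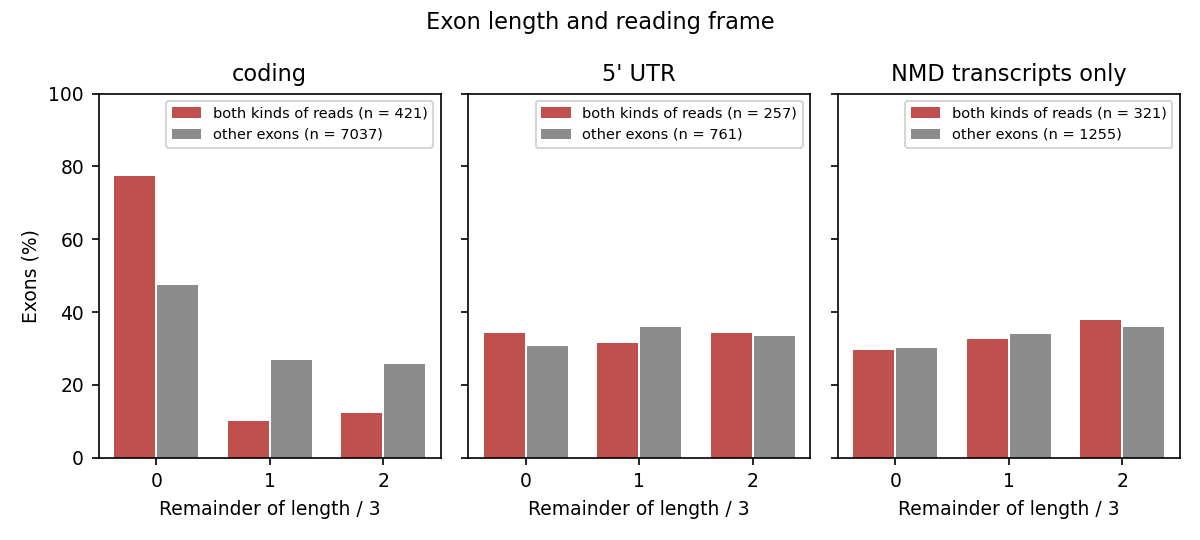
Share of exons (percent, vertical axis) by the remainder of their length divided by 3, for dual-read exons (red, "both kinds of reads") and other exons (grey) in 3 annotation classes. In the coding class a remainder of 0 holds 77.4% of dual-read exons and 47.4% of others; in the other classes the bars are of like height.

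Within the coding class, the 326 frame-preserving dual-read exons had a median Ψ of 0.33 and the 95 frame-shifting ones 0.67. Of the 321 NMD-only exons, 244 hold an annotated stop codon and 226 have a length that is not a multiple of 3. At least 1 of these features was present in 298 of them, and 238 had Ψ below 0.25.

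Length and composition differed less than frame. The median length was 144 nt for dual-read exons and 128 nt for other exons, and 105 nt and 121 nt within the coding class. The set held 15 exons of 27 nt or shorter and 35 of 1000 nt or longer. Median upstream introns were 1953 and 2392 nt, median downstream introns 2209 and 2130 nt, and median GC content 47.9% and 47.0%. An AG at the 3′ end of the exon, the usual last bases before a 5′ splice site, was present in 56.5% and 56.0%.

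Sequence motifs known to be bound by splicing regulators were counted on the transcript strand of coding exons of 60 to 200 nt, 298 dual-read and 5397 others. TGCATG, the letters known for RBFOX proteins, was in 2 dual-read exons (0.671%) and in 2.67% of others. GAAGAA, a purine-rich enhancer motif, was in 11.7% and 14.1%, and GGGG in 17.1% and 23.3%. TCTCTT, a pyrimidine-rich motif known for PTBP1, was in 3.36% and 3.58%, and GGTGG in 11.7% and 14.3%. A match is a description of the letters and not of binding, and intron sequence was not used here.

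Reads that fall in unspliced introns can count as inclusion reads, so the label of these exons as alternative was checked against the flanking introns. The density of reads matching neither form over both introns, which can also hold spliced reads and reads of other exons, gives the number of inclusion reads that intron signal alone would bring. With the scrambled oligo, inclusion reads reached that number in 640 dual-read exons (47.2%) and stayed below it in 716, and they were at least 2-fold above it in 338 (24.9%). The median ratio was 2.08 for coding exons, 0.92 for 5′ UTR exons, 0.63 for NMD-only exons and 0.63 for exons of noncoding transcripts. For the 716 exons below the density, inclusion of the exon and unspliced RNA cannot be told apart with these reads, and the data do not bear out the label for them.

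**Figure D3:**
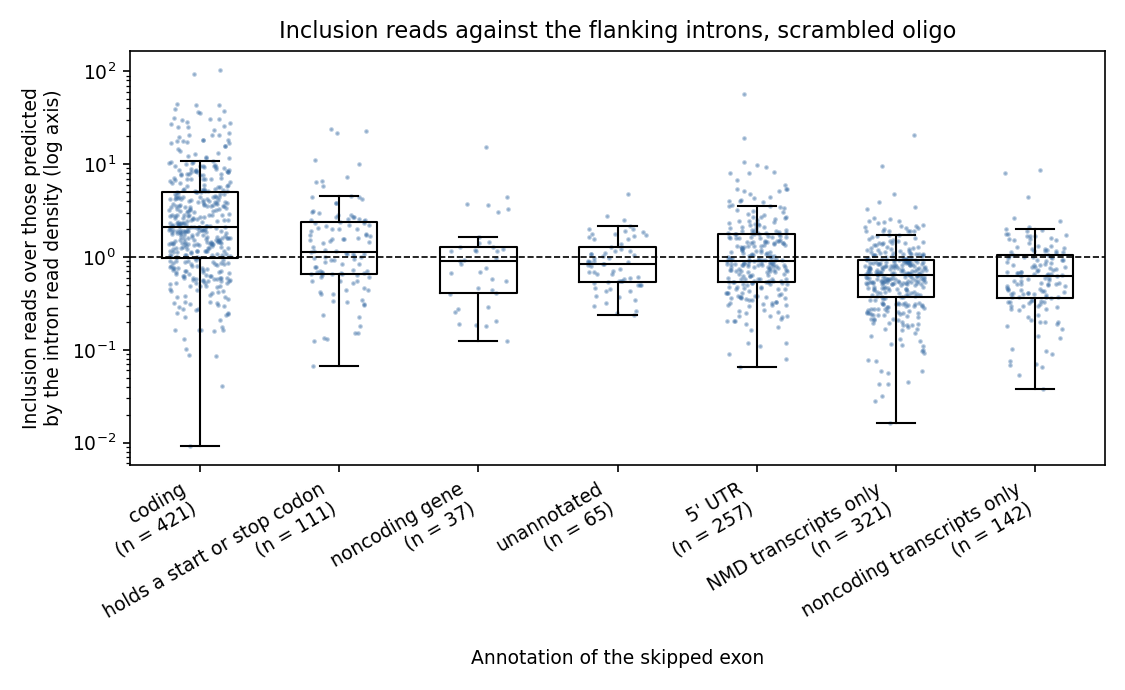
Inclusion reads in scrambled-oligo cells divided by the number predicted from the read density of both flanking introns (log axis), by annotation of the exon, without the 2 exons in a 3′ UTR; points are exons, boxes median and quartiles, whiskers the last exon within 1.5 box heights, and the dashed line equality. Coding exons centre at 2.08, above the line, and NMD-only exons at 0.63, below it.

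The 338 exons at 2-fold or more had a median Ψ of 0.615, and 216 of them (63.9%) were coding. The other 1018 had a median Ψ of 0.15, and 205 (20.1%) were coding. The frame was preserved by 155 of those 216 coding exons (71.8%) and by 171 of those 205 (83.4%), both above the 47.4% of other coding exons.

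The best-covered exons of intermediate level included coding exons and poison exons. The HNRNPA2B1 exon shown above separates the B1 form of this RNA-binding protein, which contains it, from the A2 form. It had 81 inclusion and 102 skipping reads in SSE mimetic cells and 203 and 340 in scrambled-oligo cells. Its Ψ was 0.39 (0.32 to 0.45) in SSE mimetic cells and 0.32 (0.28 to 0.36) in scrambled-oligo cells, with credible intervals that overlap. Intron density would account for 33.7% of its inclusion reads in SSE mimetic cells and 57.4% in scrambled-oligo cells. The share of inclusion reads after its subtraction, corrected for the number of read positions, was 0.262 and 0.147.

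EIF4A2 encodes a translation initiation helicase, and the form with its poison exon was the more frequent one by Ψ. It had 80 inclusion and 13 skipping reads in SSE mimetic cells and 718 and 142 in scrambled-oligo cells, and Ψ was 0.74 (0.63 to 0.84) and 0.75 (0.72 to 0.78). Intron density would account for 51.3% and 46.9% of these inclusion reads, and the corrected share after its subtraction was 0.553 and 0.525. A coding exon of 140 nt in the same gene, named after its values were seen, was at 0.82 (0.69 to 0.92) and 0.67 (0.62 to 0.71). Transcripts with a premature stop are known to be degraded, so Ψ among the RNA present need not equal the share made.

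ITGA6 encodes the integrin alpha 6 chain, and its exon of 130 nt (chr2:172501772-172501901) changes the cytoplasmic tail. It had 35 inclusion and 18 skipping reads in SSE mimetic cells and 816 and 272 in scrambled-oligo cells, and Ψ was 0.59 (0.44 to 0.73) and 0.70 (0.67 to 0.73). MAP4K4, a kinase gene, had an exon of 192 nt at 0.39 (0.26 to 0.54) and 0.62 (0.56 to 0.67). Neither exon was called different between the groups, although the intervals of MAP4K4 were apart. The share of inclusion reads of the MAP4K4 exon, corrected for the number of read positions, was 0.570 and 0.562, a difference of 0.00792. After subtraction of the intron density that share was 0.392 and 0.535.

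Among the best-covered exons of intermediate level, 2 were longer than 1000 nt, and both lie in genes of dividing cells. The exon of ASPM, a spindle pole protein, is 4755 nt long and had 515 inclusion reads and 1 skipping read in SSE mimetic cells and 6745 and 27 in scrambled-oligo cells, with Ψ at 0.74 (0.57 to 0.92) and 0.73 (0.68 to 0.78). The exon of MKI67, which encodes the proliferation marker Ki-67, is 1080 nt long and was at 0.32 (0.25 to 0.39) and 0.35 (0.32 to 0.39). For both, the levels in the groups lay within each other's intervals. PFDN1, a prefoldin chaperone subunit, was at 0.74 (0.51 to 0.91) and 0.71 (0.66 to 0.75), and a 5′ UTR exon of TCEAL9 at 0.71 (0.61 to 0.80) and 0.74 (0.70 to 0.78).

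At each end of the scale, the 5 exons with the most reads are given, and in these the rarer form was a trace in most. The best-covered exon at the high end, in PLEC, was at 0.41 in SSE mimetic cells and 0.88 in scrambled-oligo cells. It was called lower and is described with the lower calls below. The scaffold gene RACK1 had 7 inclusion and 587 skipping reads in SSE mimetic cells and 21 and 4061 in scrambled-oligo cells, and Ψ was 0.01 and 0.00. Exons of RPS15A, RPS18 and RPL35, ribosomal protein genes, and of PPIA, which encodes cyclophilin A, were likewise at 0.01 or below in both groups. For these 5 exons the inclusion reads stayed below the number that the intron density gives, in both groups.

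At the high end, NPM1, which encodes nucleophosmin, had 188 inclusion reads and 1 skipping read in SSE mimetic cells and 4349 and 13 in scrambled-oligo cells, with Ψ at 0.98 (0.94 to 1.00) and 0.99 (0.99 to 1.00). RPL24 was at 0.96 and 0.99, and MATR3, a nuclear matrix protein gene, at 0.95 in both groups. RPLP0, which encodes a ribosomal stalk protein, had overlapping forms of 1 exon. The 186-nt coding form was at 0.94 (0.86 to 0.99) and 0.86 (0.83 to 0.89), and the 217-nt form of NMD transcripts, which shares reads with it, at 0.75 (0.64 to 0.86) and 0.69 (0.65 to 0.72). Genes of this group have processed pseudogenes, and how reads from such copies were placed was not examined.

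Splicing regulators made up one of 8 gene lists read for dual-read exons. SR protein, hnRNP and related genes had 54 in 34 genes, with a median Ψ of 0.26, and 17 of them were NMD-only. HNRNPDL was at 0.96 (0.92 to 0.99) in SSE mimetic cells and 0.98 (0.97 to 0.99) in scrambled-oligo cells, and HNRNPK at 0.86 (0.76 to 0.95) and 0.96 (0.94 to 0.97). Poison exons of TRA2B, SRSF3, SRSF6 and SRSF7, named after their values were seen, had lower Ψ than these exons of HNRNPDL and HNRNPK. In scrambled-oligo cells the TRA2B exon was above the list median of 0.26, and the SRSF6 exon is given with the calls below. That of TRA2B was at 0.41 (0.27 to 0.54) and 0.56 (0.49 to 0.64), that of SRSF3 at 0.14 (0.10 to 0.19) and 0.10 (0.08 to 0.11), and the 276-nt form in SRSF7 at 0.07 (0.03 to 0.11) and 0.05 (0.03 to 0.07). Inclusion reads of the SRSF3 and SRSF7 exons were below the intron density in both groups, and those of TRA2B in SSE mimetic cells.

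Core spliceosome genes had 23 dual-read exons in 18 genes, with a median Ψ of 0.10. SNRPG, an Sm protein gene, had a coding exon of 23 nt at 0.84 (0.74 to 0.93) in SSE mimetic cells and 0.88 (0.86 to 0.89) in scrambled-oligo cells. U2SURP, which encodes a protein associated with the U2 particle, was at 0.93 (0.82 to 0.99) and 0.91 (0.88 to 0.94). For neither exon were the intervals apart.

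Genes with known epithelial-mesenchymal splicing switches had 30 dual-read exons in 18 genes, with a median Ψ of 0.22. The variable exons of the hyaluronan receptor gene CD44, named after their values were seen, were low. That of 204 nt had 26 inclusion and 18 skipping reads in SSE mimetic cells and 290 and 306 in scrambled-oligo cells, and Ψ was 0.11 (0.07 to 0.15) and 0.10 (0.09 to 0.11). Intron density would account for 90.4% and 23.6% of these inclusion reads, and the corrected share after its subtraction was 0.0361 and 0.163. Inclusion reads of the 129-nt CD44 exon were below the density in both groups, and those of the 126-nt one in SSE mimetic cells. PKM, a pyruvate kinase gene, had an exon at 0.02 and 0.01, and MPRIP, a myosin phosphatase partner, one of 3807 nt at 0.06 and 0.05. Inclusion reads were below the intron density in both groups for PKM, and in SSE mimetic cells for MPRIP.

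Cytoskeleton and adhesion genes had 45 dual-read exons in 31 genes, with a median Ψ of 0.20. In the actin cross-linker gene FLNA, the 24-nt exon shown above had 45 inclusion and 8 skipping reads in SSE mimetic cells and 304 and 56 in scrambled-oligo cells. Its Ψ was 0.73 (0.58 to 0.85) and 0.75 (0.69 to 0.80), while a 123-nt exon of the same gene was at 0.98 in both groups. Membrane traffic genes had 27 dual-read exons in 20 genes (median 0.29). In CLTC, which encodes the clathrin heavy chain, a coding exon of 21 nt had 0 inclusion and 121 skipping reads in SSE mimetic cells and 14 and 410 in scrambled-oligo cells, with Ψ at 0.01 and 0.03 and inclusion reads below the intron density in scrambled-oligo cells.

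Chromatin and transcription genes had 47 dual-read exons in 24 genes (median Ψ 0.22), cell cycle and cell death genes 29 in 18 (0.23), and kinase and small GTPase genes 31 in 19 (0.23). ANLN, which encodes the contractile ring protein anillin, was at 0.94 (0.87 to 0.98) in SSE mimetic cells and 0.92 (0.90 to 0.94) in scrambled-oligo cells. BIRC5, the survivin gene, was at 0.85 (0.71 to 0.94) and 0.91 (0.86 to 0.94). CSNK1A1, a casein kinase gene, was at 0.52 (0.33 to 0.69) and 0.40 (0.34 to 0.45), and MAPKAP1, a component of the mTORC2 kinase complex, at 0.93 and 0.92. None of these 4 was called different between the groups.

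In the same lists, a 5′ UTR exon of MORF4L2, a chromatin gene, was at 0.72 in SSE mimetic cells and 0.67 in scrambled-oligo cells. The poison exons of VTI1B, a SNARE gene, NSD2, a histone methyltransferase gene, and CDC27, a subunit of the anaphase-promoting complex, were at 0.10, 0.02 and 0.05 in SSE mimetic cells and 0.17, 0.06 and 0.04 in scrambled-oligo cells. An exon of 1463 nt in HMGN1, a nucleosome-binding protein gene, was at 0.07 and 0.03. None of these 5 exons was called, and the inclusion reads of CDC27 and HMGN1 were below the intron density in both groups, and those of VTI1B and NSD2 in SSE mimetic cells.

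Some genes held several dual-read exons: 252 genes had more than 1 and 23 had at least 4. EEF1D, a translation elongation factor gene, had 10, of which 4 do not overlap each other, with Ψ from 0.01 to 0.33 in the scrambled group. Next came the noncoding RNA gene CYTOR with 7 and the annexin gene ANXA2 with 6. Over the whole set 291 exons overlapped another, and 1196 remained with 1 exon per overlapping group. Overlapping exons share reads and are not independent of each other.

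Reads that separate the forms were sparser in SSE mimetic cells. Of the 1356 exons, 893 had at least 10 form-specific reads there and were tested, and 463 were not. An exon was called when the authors' Bayes factor, which weighs a difference against none, reached 10 and the change in Ψ reached 0.1 in size. Among the 893 tested dual-read exons 137 in 123 genes were called higher in SSE mimetic cells and 4 lower, and 752 were not called. Over all 8225 tested exons of the series, 3.98% were called, 3.09% higher and 0.888% lower. The scrambled side of this contrast chose the dual-read exons, so nothing is read from their share against that background.

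The median Ψ of the tested dual-read exons was 0.37 in SSE mimetic cells and 0.19 in scrambled-oligo cells. Differences centred on a median of 0.07 (quartiles 0.00 and 0.20). They were above 0 in 646 exons, below in 221 and 0 in 26, and over all tested exons the median was -0.03. At baseline levels below 0.1 the median was 0.065 for dual-read exons and 0.04 for other tested exons. In the same order it was 0.14 and 0.20 from 0.1 to 0.25, and 0.185 and 0.21 from 0.25 to 0.5. From 0.5 to 0.75 it was 0.03 and 0.07, from 0.75 to 0.9 -0.005 and -0.03, and above that -0.03 and -0.07. The 137 exons called higher had a median Ψ of 0.53 in SSE mimetic cells and 0.14 in scrambled-oligo cells. Credible intervals were apart for 136 of the 137 and for all 4 exons called lower.

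**Figure D4:**
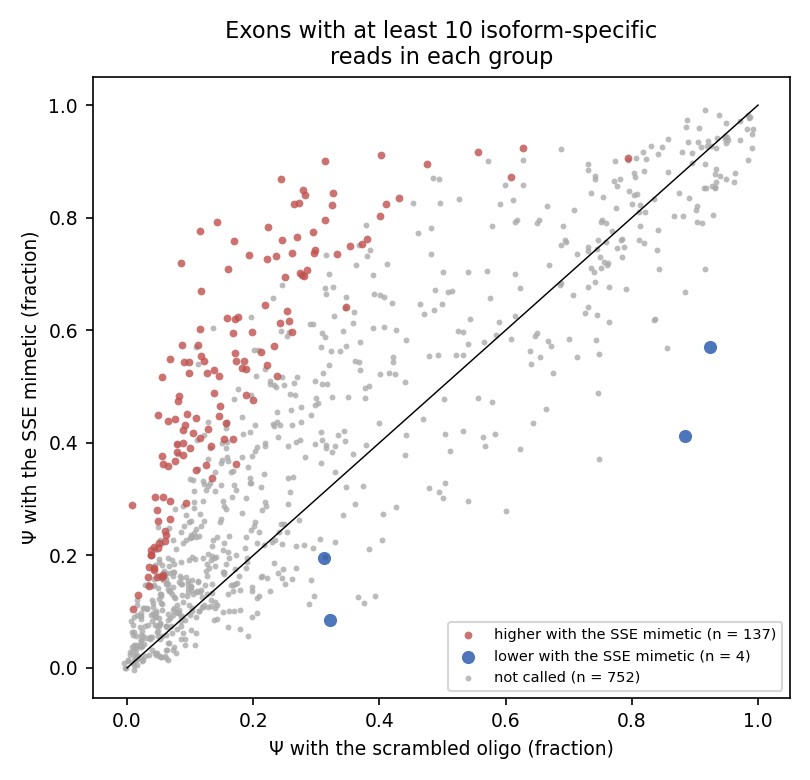
Ψ in SSE mimetic cells (vertical axis, fraction) against Ψ in scrambled-oligo cells (horizontal axis, fraction) for the 893 tested dual-read exons, with points shifted by up to 0.005 to separate them; the line marks equal values. The 137 exons called higher (red) lie above the line, most of them at Ψ below 0.5 in scrambled-oligo cells. Of these 137, 3 were at 0.5 to 0.75 and 1 at 0.75 to 0.9. The 4 called lower (blue) lie below the line.

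Several measured quantities moved together with this difference. Reads that matched neither form, which include intron reads, numbered 21.4 per form-specific read in SSE mimetic cells and 7.35 in scrambled-oligo cells over the dual-read exons. They numbered 16.3 and 6.34 over the other tested exons. In the 137 exons called higher, inclusion reads summed to 3891 and 8436, and skipping reads to 864 and 10324. Reads in scrambled-oligo cells over those in SSE mimetic cells were 2.17 for inclusion, 11.9 for skipping and 2.02 for neither form. In the tested dual-read exons that were not called, these ratios were 6.13, 6.41 and 2.36. Of the 338 exons with inclusion reads at least 2-fold above the intron density, 271 were tested, 21 were called higher and 4 lower, and the median difference was 0.01. Of the other 1018, 622 were tested, 116 were higher and 0 lower, and the median was 0.10. The split uses the scrambled inclusion reads, which also enter baseline Ψ. The tested exons of its parts began at median Ψ of 0.67 and 0.12, so the contrast between the parts is a description.

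When the intron density was subtracted from the inclusion reads of both groups, the remaining share was higher in SSE mimetic cells in 77 of the 137 exons, 53 of them by at least 0.1. It was equal in 45, lower in 8 and could not be computed in 7. Depth moved with the size of the difference too: the median was 0.105 at 10 to 19 form-specific reads in SSE mimetic cells (414 exons), 0.08 at 20 to 49 (325 exons) and 0.01 at 50 or more (154 exons). The part of intron reads and depth in the difference was not tested.

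By annotation, 41 of 205 tested NMD-only exons were called higher, 27 of 157 in 5′ UTRs (17.2%) and 25 of 285 coding ones (8.77%). Of the 4 lower calls, 3 were coding exons and 1 lay in a 5′ UTR. Among other exons with at least 20 form-specific reads in scrambled-oligo cells, 4.62% of tested NMD-only exons, 1.94% in 5′ UTRs and 21 of 4198 coding ones were called higher. In that set it was 3.64% of unannotated exons, 1.71% in noncoding genes, 0.846% with a start or stop codon and 3.96% in noncoding transcripts. Within the coding class, 24 of 221 frame-preserving exons and 1 of 64 frame-shifting exons were higher. These tested exons began at median Ψ of 0.36 and 0.755, so the parts are not matched on level. In the other coding exons the shares called higher were 0.666% and 0.356%. By baseline level, the share of dual-read exons called higher was 18.8% below 0.1, 20.4% from 0.1 to 0.25 and 18.6% from 0.25 to 0.5, against 27 of 751, 40 of 158 (25.3%) and 42 of 318 (13.2%) other tested exons at the same levels. It was 3.41% from 0.5 to 0.75, 1.43% from 0.75 to 0.9 and 0% above, against 0.992%, 0.0672% and 0%. These levels come from the same reads as the difference and are a description.

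The VEGFA exon shown above encodes much of the heparin-binding part of this growth factor and is named after its values were seen. It had 35 inclusion reads and no skipping read in SSE mimetic cells and 75 and 18 in scrambled-oligo cells, and Ψ was 0.69 (0.50 to 0.87) and 0.25 (0.20 to 0.31). Intron density would account for 45.8% of its inclusion reads in SSE mimetic cells and 39.4% in scrambled-oligo cells. A 97-nt form of the same exon was at 0.34 (0.17 to 0.51) and 0.10 (0.06 to 0.14) and was not called, with inclusion reads below the intron density in both groups.

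Among exons called higher with at least 20 form-specific reads per group, the adaptor protein gene SORBS2 had the largest difference. Its exon (chr4:185676997-185677638) had 42 inclusion reads and no skipping read in SSE mimetic cells and 56 and 10 in scrambled-oligo cells, and Ψ was 0.90 (0.67 to 1.00) and 0.31 (0.22 to 0.42). An unannotated exon of PCID2 was at 0.85 (0.58 to 1.00) and 0.28 (0.20 to 0.38), but there the intron density exceeded the inclusion reads in both groups. In the other 6 exons of this rank the density was below the inclusion reads in both groups. It would still account for 41.8% (CFDP1) to 84.0% (SSX2IP) of them in SSE mimetic cells. In scrambled-oligo cells it would account for 49.6% (KLHL5) to 91.5% (SSX2IP). For SORBS2 it would account for 67.0% and 83.7%. After subtraction the corrected share of these 6 exons was 0.315 to 0.620 in SSE mimetic cells and 0.0166 to 0.179 in scrambled-oligo cells.

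TMEM126B encodes an assembly factor of mitochondrial complex I. Its 5′ UTR exon (chr11:85631145-85631316) had 33 inclusion and 3 skipping reads in SSE mimetic cells and 58 and 32 in scrambled-oligo cells, and Ψ was 0.76 (0.57 to 0.90) and 0.25 (0.19 to 0.32). SCLT1, a centriole protein gene, was at 0.73 (0.47 to 0.93) and 0.22 (0.15 to 0.31), and SSX2IP, a centrosome protein gene, at 0.82 (0.64 to 0.95) and 0.32 (0.22 to 0.42). In each of these 3 exons skipping reads numbered 3 or fewer in SSE mimetic cells and 32 or 33 in scrambled-oligo cells.

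Exons of KLHL5 and CFDP1 were at 0.84 (0.64 to 0.97) and 0.57 (0.36 to 0.78) in SSE mimetic cells, against 0.33 (0.25 to 0.41) and 0.09 (0.05 to 0.14) in scrambled-oligo cells. In the histone methyltransferase gene SETD2, an exon of NMD transcripts had 39 inclusion and 7 skipping reads in SSE mimetic cells and 46 and 42 in scrambled-oligo cells. A coding exon of 312 nt in the mitotic kinesin gene KIF23, named after its values were seen, was also called higher, at 0.64 (0.48 to 0.79) and 0.35 (0.31 to 0.40). It had 54 inclusion and 7 skipping reads in SSE mimetic cells and 248 and 114 in scrambled-oligo cells.

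**Figure D5:**
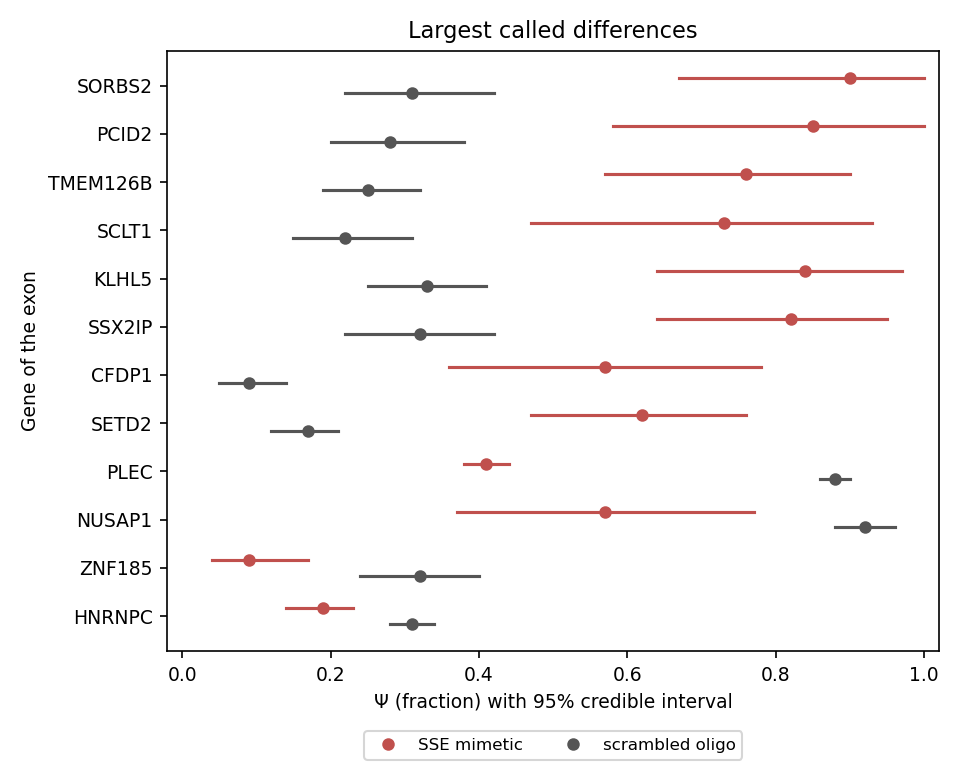
Ψ (fraction, horizontal axis) with 95% credible interval for the 8 largest called differences upward and all 4 downward, by gene, with SSE mimetic cells (red) drawn above scrambled-oligo cells (grey) in each pair. The intervals of each pair are apart, and those of SSE mimetic cells are the wider ones in each gene but ZNF185, in SORBS2 from 0.67 to 1.00.

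Only 4 dual-read exons were called lower. ZNF185, which encodes an actin-associated LIM protein, had 5 inclusion and 17 skipping reads in SSE mimetic cells and 70 and 42 in scrambled-oligo cells for the exon shown above. Its Ψ was 0.09 (0.04 to 0.17) and 0.32 (0.24 to 0.40), and the share of inclusion reads, corrected for the number of read positions, was 0.114 and 0.422. It is the 1 exon of the 4 in which skipping reads outnumbered inclusion reads in SSE mimetic cells. Its inclusion reads in SSE mimetic cells were below the intron density.

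NUSAP1, a spindle protein gene, had 26 inclusion and 2 skipping reads in SSE mimetic cells and 531 and 13 in scrambled-oligo cells, and Ψ was 0.57 (0.37 to 0.77) and 0.92 (0.88 to 0.96). Its corrected share was 0.835 and 0.941. The 272-nt 5′ UTR form of the HNRNPC exon was at 0.19 and 0.31, and its corrected share at 0.681 and 0.719. A longer form of that exon, 519 nt, was at 0.18 (0.15 to 0.22) and 0.25 (0.23 to 0.27) and was not called. The plectin exon of PLEC was at 0.41 and 0.88, while its corrected share was 0.954 and 0.941, a difference of 0.0126 that rests on 1 and 12 skipping reads and shows no direction.

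Calls in the lists are set beside the 15.3% of all tested dual-read exons that were called higher. Of the tested dual-read exons, 2 of 26 were higher in the epithelial-mesenchymal list, 4 of 48 among splicing regulators (with 1 lower), 2 of 12 in the core spliceosome and 6 of 37 in the cytoskeleton list (with 1 lower). In membrane traffic 5 of 22 were higher, in chromatin and transcription 4 of 31, in cell cycle and cell death 1 of 16 and in kinase and GTPase signalling 4 of 19. The named ones were in APLP2, an amyloid precursor-like gene, at 0.82 (0.69 to 0.91) and 0.41 (0.36 to 0.47), and in the helicase gene DDX39B, at 0.18 (0.09 to 0.30) and 0.04 (0.02 to 0.06). The corrected share of the APLP2 exon was 0.905 and 0.848, a difference of 0.0566 that is below the size set for a call, and 0.0698 after intron subtraction. Also called higher were poison exons of SRSF6 (0.34 and 0.14) and an NMD-transcript exon of EZH2 (0.54 and 0.09), both named after their values were seen. In the DDX39B and SRSF6 exons the intron density exceeded the inclusion reads in both groups.

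Of the 6 exons named for the most form-specific reads in SSE mimetic cells, 5 were not called. Reads of the rarer form limit the precision too: ASPM, with 1 skipping read there, had an interval of 0.57 to 0.92. PPIA, RACK1, RPS18 and ASPM differed by 0.01 or less between the groups. NACA, whose very long exon of 5589 nt is known in mouse for a muscle form of this nascent-chain binding protein, was at 0.04 (0.03 to 0.05) and 0.01 (0.01 to 0.01), with inclusion reads below the intron density in both groups. PLEC was the 1 called exon among these 6.

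Marker genes were read at their best-covered exon, as a check of the line. The mesenchymal genes CD44, AXL, ZEB1 and SPARC had 14 to 1398 inclusion, skipping and shared reads in SSE mimetic cells and 173 to 10893 in scrambled-oligo cells. The epithelial genes ESR1, CDH1, ESRP1 and ESRP2 had 10 to 57 and 6 to 94, and the immune and endothelial genes PTPRC, CD3E and VWF 12 to 29 and 17 to 37. In SSE mimetic cells the ranges overlap, with SPARC at 14 and ESRP1 at 57, so the check does not separate the marker sets there. EPCAM, GRHL2, PECAM1 and VIM had no listed exon. In read sets of this kind, fewer cells of a type and less RNA per cell cannot be told apart.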

How the data were processed

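The submitters' processing notes name STAR 2.7 and the build hg38. Per the file headers, the deposited tables are MISO skipped-exon summaries, 1 per group, and 1 comparison; Ψ is a fraction, and the Bayes factor the authors deposited is a ratio. The authors' deposited tables give reads per form as text, in other units. No source used here gives the MISO version, the read length or the way samples were pooled. Libraries were made with ScriptSeq v2, per the labels' protocols, and it is not said whether samples came from separate cultures.

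Exons were matched to GENCODE release 29: 1291 dual-read exons matched an annotated exon and 65 were placed by flanking exons. Exons with at least 10 form-specific reads per group were tested; calls needed a Bayes factor of at least 10 and a difference of at least 0.1. The corrected share divides inclusion reads by exon length plus 75 and skipping reads by 75, for an assumed read length of 76. Fisher's exact test on reads compares pools, not conditions. The corrected share and Fisher's exact test were tried on simulated inclusion and skipping reads without intron reads. The Bayes factor calls, intron subtraction and annotation were not tried on simulated data.

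Named exons were the 10 best-covered between Ψ 0.25 and 0.75, 5 below and 5 above, 3 per gene list, the 8 largest called differences per direction with at least 20 form-specific reads per group, and the 6 best-covered with the SSE mimetic, 1 per gene within each. Exons, lists and rule were chosen with earlier results of these data known.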

Additional observations from a re-analysis of the deposited data

How the results depend on the processing

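No paired analysis was possible because the deposited tables hold 1 pooled summary per group and carry no replicate number; leaving out a sample was not possible for the same reason. The number of dual-read exons was 513 with at least 20 reads of each kind, 2980 with at least 5, and 338 with inclusion reads at least 2-fold above the intron density. The median baseline level was 0.227 as corrected share, 0 after intron subtraction and 0.615 in the 2-fold subset. Counts called higher and lower were 75 and 2 at a Bayes factor of at least 100, 81 higher with at least 20 form-specific reads in each group, 79 and 2 with at least 20 inclusion and 20 skipping reads, and 53 and 2 after subtraction. With no minimum of reads in SSE mimetic cells 9 were lower, and in the 2-fold subset 21 were higher. By Fisher's exact test with Benjamini-Hochberg adjustment they were 53 and 0, with 65 dual-read exons past the adjusted p and 269 at an unadjusted p under 0.05. The median difference was 0.0802 as corrected share, 0.05 with at least 20 reads, 0 after subtraction and 0.01 in the 2-fold subset. PLEC changed sign, at 0.0126 as corrected share and 0.00767 after subtraction, values that rest on 1 and 12 skipping reads. The cause of these changes was not tested. The settings on intron density, intron subtraction and overlapping groups were chosen after seeing the data. Counts stayed within 1.5 times with a difference of at least 0.2 (115 and 3) and with 1 exon per overlapping group (127 and 3). Among 51 named exons, the corrected share left 40 within the criterion for no change and moved 10. Credible intervals at 10 to 19 reads limit what the SSE mimetic pool can resolve.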
